A study of Sus scrofa with 54 samples.

Results

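Signals of 5 apolipoprotein genes, APOA1, APOA2, APOA4, APOC3 and APOE, were examined in the ileum of growing piglets. The members were all probesets that the platform annotation assigned to these symbols, which gave 6 of the 23999 probesets tested, with 2 for APOE and 1 for each of the other genes. Ileal RNA of 54 Large White × Landrace piglets was measured on porcine GeneChip arrays, an array for each piglet, with 6 piglets in each of 9 groups. IN piglets were raised by sows in an indoor facility, OUT piglets were raised by sows outdoors, and IR piglets were taken from indoor sows on the day after birth into individual isolators, where they received an antibiotic cocktail (Baytril and Amoxinsol) every day and commercial milk replacer until day 28. Ileum was collected at days 5, 28 and 56, and the piglets of all 3 groups were weaned at day 28 and then offered the same solid feed. All piglets had the same sire and several shared a dam, isolator housing, antibiotics and milk replacer came together in the IR group, and age after day 28 came together with weaning. The samples were pieces of gut wall, so that fewer cells of a type and less RNA per cell cannot be told apart.

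Apolipoproteins are the protein coats of lipoproteins, the particles that carry triglyceride and cholesterol through lymph and blood. In the small intestine, enterocytes take up fatty acids after a fatty meal such as milk, rebuild them into triglyceride and load them onto APOB with the help of the transfer protein MTTP, and the resulting chylomicron leaves the cell with APOA1 and APOA4 on its surface. APOC3 slows and APOC2 activates lipoprotein lipase, the enzyme that later unloads the particle, whereas APOE is a ligand for the receptors that clear its remnant and is also made by macrophages. APOA1 and APOA2 are the main proteins of high-density lipoprotein. In the pig reference assembly Sscrofa11.1 APOA4, APOC3 and APOA1 lie next to each other on chromosome 9, after APOA5, while APOA2 lies on chromosome 4 and APOE on chromosome 6 beside APOC4.

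Signals were on the log2 scale, where a difference of 1 is a 2-fold change, and array medians lay between 3.98 and 4.21. The levels of different probesets were not set against each other. A difference was called when it reached 2-fold and limma gave an unadjusted p under 0.01, and the p printed with each value is limma's p after Benjamini-Hochberg adjustment over the 23999 probesets. The labels do not give the experimental run, and 2 arrays of day 56 (IR and IN) carry no replicate number.

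The array of OUT replicate 3 at day 5 stood apart from the rest of the series. Its mean correlation with the other arrays of its group was 0.881, against at least 0.935 for the other 53 arrays. All 12 measured markers of the enterocyte brush border were lower there than in each of the other 5 OUT piglets of that day, 10 of them below all 53 other arrays, and the mean of the list was 5.96 against 10.42. General epithelial markers did not share this, with a list mean of 11.09 against 10.78, whereas 6 of 6 smooth muscle markers and 7 of 8 endothelial markers were above the other 5 piglets. In each of the 9 groups the brush border list had a mean of at least 9.68. Differences of the apolipoproteins and counts of pathway genes that this piglet changed are therefore also given without it.

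APOA1, APOC3 and APOA4 had high signals in the ileum at every age and in every rearing group, and most of their differences were small beside the spread of the piglets. Without OUT replicate 3 at day 5, APOA1 lay between 13.84 and 14.60 in 53 piglets. APOC3 lay between 11.46 and 14.10 and APOA4 had its lowest value at 11.95. The highest signal of any tested probeset in the series was 14.72. These genes, and APOA1 in particular, thus lay near the top of the measured range, which limits what can be said of small differences there. In OUT replicate 3 at day 5 the 3 genes read 10.43, 3.84 and 4.91. This piglet was thus the lowest of the series for each of these 3 neighbouring genes of chromosome 9. It also had the lowest APOB (4.14 against 12.81 to 13.60 in the other 5 OUT piglets) and the lowest MTTP (4.14 against 11.73 to 12.01).

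**Figure D1:**
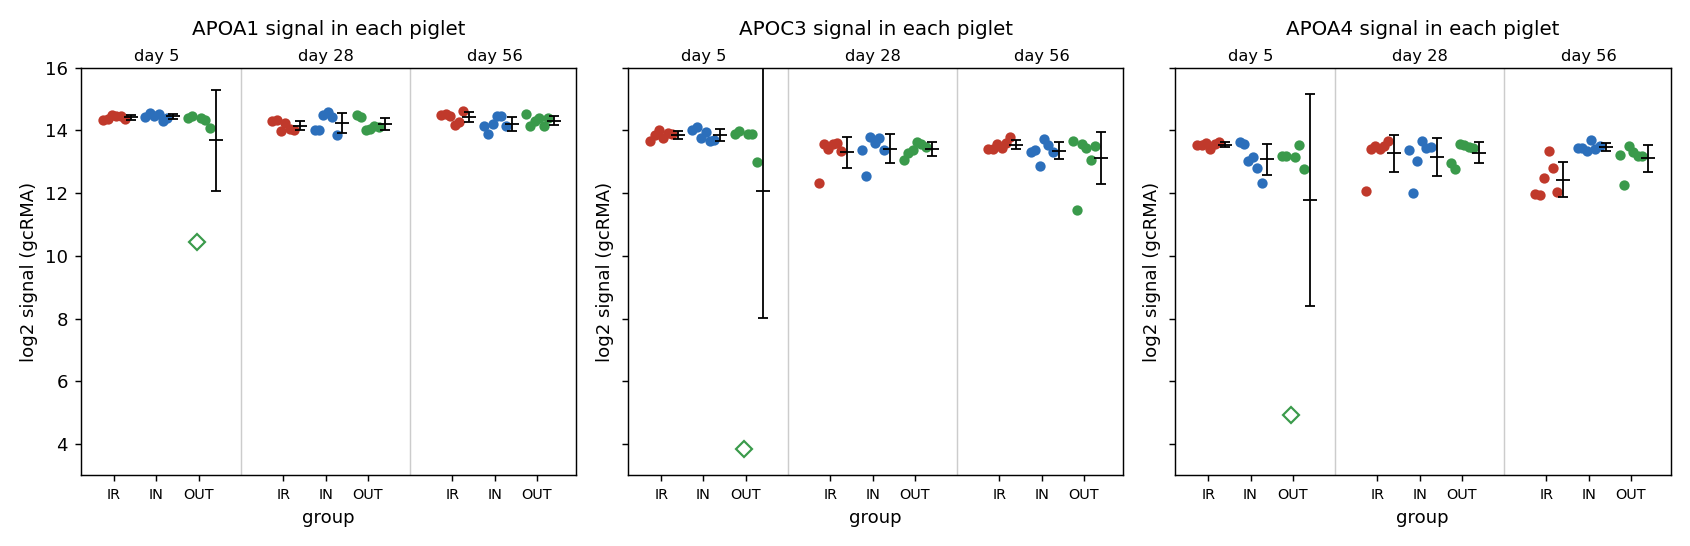
Log2 signal (vertical axis) of APOA1, APOC3 and APOA4 in each piglet, by group and day (horizontal axis). Points are piglets, black bars are group means ± SD (n = 6), and the open diamond is OUT replicate 3 at day 5, which at 10.43, 3.84 and 4.91 lies far below the other 53 piglets.

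At day 5 the lowest, median and highest APOC3 signals were 13.67, 13.86 and 14.01 in IR, 13.65, 13.84 and 14.10 in IN, and 3.84, 13.88 and 13.98 in OUT. The medians of the 3 groups thus lay within the spread of any of them. IR exceeded OUT by 1.77 (SE 1.26, limma adjusted p = 0.866), and without OUT replicate 3 the difference was 0.12 (SE 0.15, adjusted p = 0.909). The same happened with APOA1, where a difference of 0.73 between IR and OUT at day 5 (SE 0.50, adjusted p = 0.865) became 0.08 (SE 0.08, adjusted p = 0.872). It also happened with APOA4, where 1.75 (SE 1.06, adjusted p = 0.847) became 0.37 (SE 0.19, adjusted p = 0.711). At days 28 and 56 the differences between groups were at most 0.21 for APOA1 and 0.42 for APOC3 in either direction, and none of the 6 comparisons had an unadjusted p under 0.05 in limma for either gene.

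Of the later ages, 3 piglets were low against their group for both APOC3 and APOA4. IR replicate 1 at day 28 had 12.33 for APOC3 and 12.08 for APOA4, with the other 5 IR piglets at 13.35 or more and 13.41 or more. OUT replicate 2 at day 56 had 11.46 and 12.25, with the other 5 OUT piglets at 13.07 or more and 13.17 or more. IN replicate 2 at day 28 had 12.54 and 12.00. After group means were removed, over the 53 arrays without OUT replicate 3 at day 5, APOA4 and APOC3 had a Pearson correlation of 0.69 (Spearman 0.57), APOA1 and APOC3 one of 0.34 (0.43), and APOA1 and APOA4 one of -0.08 (-0.14). Of the 3 neighbours on chromosome 9, APOA1 and APOA4 thus varied with little relation to each other. The mean of the chylomicron assembly list had a correlation of 0.71 with APOA4, 0.68 with APOC3 and 0.40 with APOA1 over the same arrays, and that of the brush border list 0.28, 0.36 and 0.54. In the same order the macrophage list had -0.07, -0.27 and -0.62 and the endothelial list 0.09, 0.28 and 0.56. The B and plasma cell list had -0.23, -0.49 and -0.55. Its mean was 11.28 in OUT replicate 2 at day 56, 10.92 in IN replicate 2 at day 28 and 7.40 in IR replicate 1 at day 28. The part of these cells was not tested. All these values come from the same arrays and share their scale.

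APOA4, which is secreted on chylomicrons and is known to rise with fat absorption, was lower in IR than in IN at day 56. The lowest, median and highest signals were 11.95, 12.25 and 13.34 in IR, 13.33, 13.44 and 13.68 in IN, and 12.25, 13.21 and 13.50 in OUT. All IR piglets except replicate 5 were below every IN piglet, and that piglet (13.34) overlapped the lowest IN value by a small margin. IR was lower than IN by 2.05-fold (log2 difference -1.03, SE 0.23), which was called, and limma's adjusted p = 0.369. APOA4 was the 1 of 6 apolipoprotein probesets called in this comparison, in which 0.288% of all probesets were. Against OUT the IR value was -0.68 (SE 0.23, adjusted p = 0.653), under the 2-fold limit and not called. IN and OUT differed by 0.36 (SE 0.23, adjusted p = 0.713). The value stood near the 2-fold limit and fell below it after quantile normalization was repeated (-0.97), with the label number as a block (-0.98, or -0.94 with numbers taken in twos), and without IR replicates 1 (-0.94) or 2 (-0.94), the unnumbered IR array (-0.95) or IN replicate 5 (-0.99). The fits with a block also lack the unnumbered arrays of IR and IN. In a fit of all 9 groups the difference kept its size and was not called (adjusted p = 0.993). That fit holds OUT replicate 3 of day 5 (4.91), with which the APOA4 SD of OUT at day 5 is 3.38, against 0.27 without it. It was not repeated without that piglet.

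APOA1 and APOC3 in the same piglets of day 56 were not lower in IR, with differences from IN of 0.21 (SE 0.11, adjusted p = 0.81) and 0.18 (SE 0.28, adjusted p = 0.929). The brush border list had a mean of 11.69 ± 0.16 (SD) in IR and 11.46 ± 0.22 in IN, with 1 of 12 genes called higher in IR (SLC2A5, the fructose transporter) and none lower. Of the 17 genes of chylomicron assembly 1 was called lower in IR than in IN and none higher. That gene was PLIN2, the coat protein of cytosolic lipid droplets, at 7.43 to 8.62 in IR and 9.70 to 11.01 in IN, with no overlap. The difference was -2.48 (SE 0.36, limma adjusted p = 0.0311). PLIN2 was also called higher in IN than in OUT (1.86, SE 0.36, adjusted p = 0.343), as was AGPAT2, an acyltransferase of triglyceride synthesis (1.04, SE 0.34, adjusted p = 0.518). MTTP differed by -0.38 between IR and IN (adjusted p = 0.821). Of 11 macrophage markers 2 were called lower in IR than in IN at day 56 and none higher, and the part of these cells in the APOA4 difference was not tested.

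**Figure D2:**
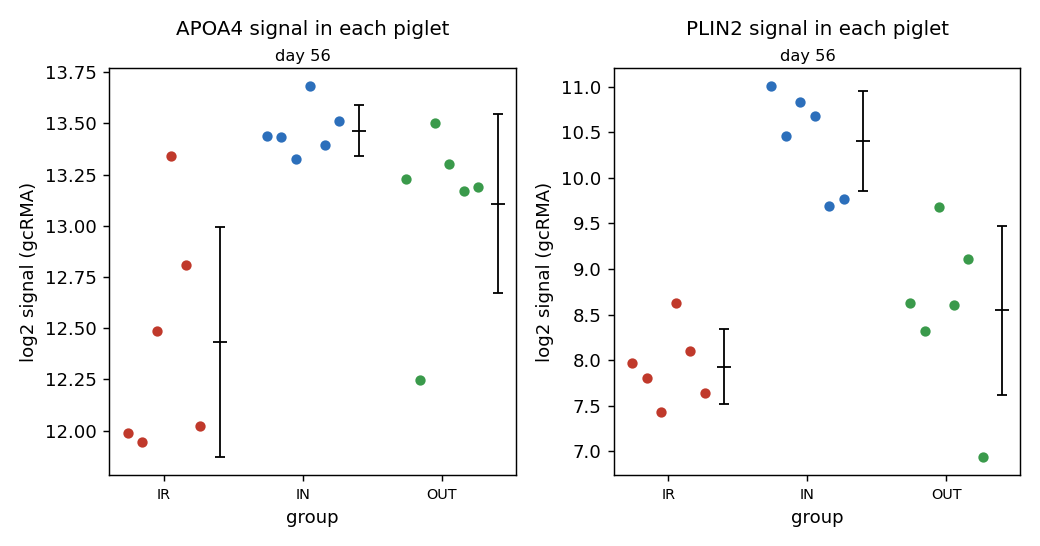
Log2 signal of APOA4 and PLIN2 (vertical axes, which do not start at 0) in each piglet of day 56, by group (horizontal axis). Points are piglets and black bars are group means ± SD (n = 6), and 5 of 6 IR piglets lie below all IN piglets for APOA4 and 6 of 6 for PLIN2.

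APOA2 was the member that differed most between rearing groups and between ages. At day 5 the 6 IR piglets read 10.55, 9.65, 11.54, 9.45, 11.78 and 11.81 in the order of their replicate numbers. The 6 IN piglets read 7.73, 10.26, 5.82, 9.30, 4.98 and 2.76, and the 6 OUT piglets 5.06, 9.01, 2.51, 6.53, 8.87 and 9.11. The IR values were high and close to each other, whereas suckled piglets ranged from the level of IR down to a signal below the array median. All 6 IR piglets were above every OUT piglet, and 4 of 6 were above every IN piglet.

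Group means of APOA2 at day 5 were 10.80 ± 1.07 in IR, 6.81 ± 2.82 in IN and 6.85 ± 2.68 in OUT (SD). IR exceeded OUT by 3.95 (SE 1.25, 15.4-fold, limma adjusted p = 0.74) and IN by 3.99 (SE 1.25, 15.9-fold, adjusted p = 0.511), and both differences were called. Without OUT replicate 3, which had the lowest value, the difference from OUT was 3.08 (SE 1.13, adjusted p = 0.666) and was not called, while that from IN stayed called (SE 1.08, adjusted p = 0.199). The difference from OUT also lost its call without OUT replicates 1 or 4, that from IN without IN replicates 3, 5 or 6, and both without IR replicates 3, 5 or 6, and over all single arrays left out the differences were 3.08 to 4.40 and 3.18 to 4.68. Both calls were also lost with the label number as a block, with the same differences (adjusted p = 0.7 and 0.576). IN and OUT differed by -0.04 (SE 1.25, adjusted p = 0.995), or by -0.91 without OUT replicate 3 (SE 1.13, adjusted p = 1). APOA2 was the 1 of 6 apolipoprotein probesets called in each of these IR comparisons, where 0.338% of all probesets were called for IR against OUT and 0.367% for IR against IN. None of the 6 was called for IN against OUT, where 0.05% of all probesets were. Over the 3 days limma called 0 of 18 apolipoprotein values for IN against OUT, with 1 at an unadjusted p under 0.05.

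**Figure D3:**
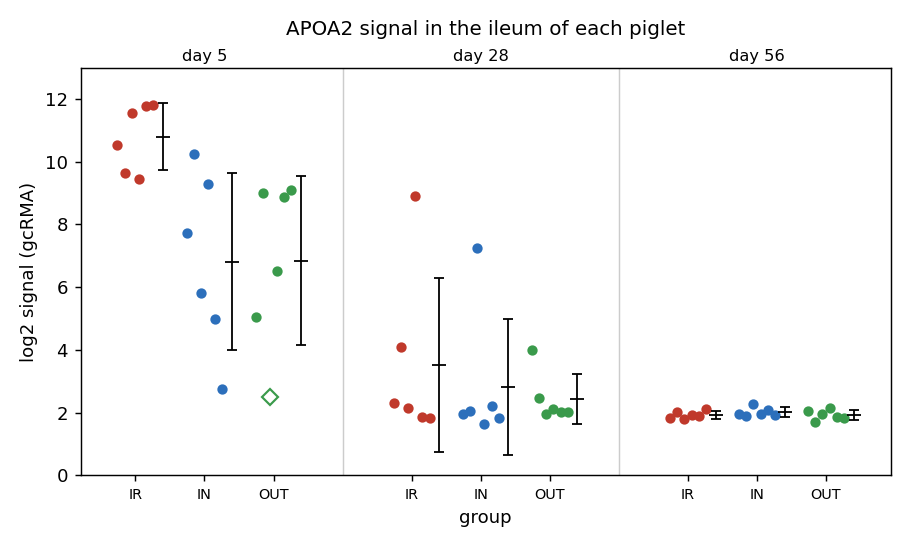
Log2 signal of APOA2 (vertical axis) in each piglet, by group and day (horizontal axis). Points are piglets, black bars are group means ± SD (n = 6), and the open diamond is OUT replicate 3 at day 5. The IR piglets of day 5 lie between 9.45 and 11.81, and all 18 piglets of day 56 lie between 1.72 and 2.29.

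The marker lists gave few calls at day 5. The mean of the brush border list was 10.15 to 10.70 in IR, 9.96 to 10.31 in IN and 5.96 to 10.74 in OUT, and none of its 12 genes was called in either IR comparison. APOA2 is also a major product of liver, and the mean of 13 liver markers was 3.42 to 3.81 in IR, 3.44 to 4.22 in IN and 3.27 to 4.01 in OUT, with none called. Of 8 endothelial markers 1 was called lower in IR than in OUT, and none was without OUT replicate 3. ALB, the albumin gene that defines hepatocytes, had group means of 2.17 to 2.50 over all 9 groups. CPS1 of the same list went the other way, with at least 10.76 in every array except OUT replicate 3 at day 5 (8.63). The mean of the list thus joins dim genes with a bright one, and the part of liver cells in the APOA2 signal was not tested. Of the 60 pathway genes measured besides the members, 3 were called at day 5 between IR and OUT, all higher in IR. These were ACAT2, an acetyl-CoA acetyltransferase (2.13, SE 0.58, adjusted p = 0.565), AGPAT2 (1.38, SE 0.47, adjusted p = 0.756) and SREBF1, a regulator of lipid synthesis (1.23, SE 0.37, adjusted p = 0.7). ACAT2 was also the 1 of 60 called between IR and IN at day 5 (2.64, SE 0.58, adjusted p = 0.217). It was counted in the enterocyte lipid uptake list, although an acetyl-CoA acetyltransferase does not take up lipid. When OUT replicate 3 was left out, only ACAT2 was called between IR and OUT (2.35, SE 0.59, adjusted p = 0.478), with AGPAT2 at 0.93 (adjusted p = 0.675) and SREBF1 at 1.06 (adjusted p = 0.64). Between IR and IN that fit called 3 of 60, as AGPAT2 (1.05, adjusted p = 0.276) and the fatty acid binding protein FABP1 (1.42, adjusted p = 0.199) then joined ACAT2 with unchanged differences and smaller SE.

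With age the APOA2 signal was lost in all 3 groups. The lowest, median and highest values at day 28 were 1.82, 2.23 and 8.92 in IR, 1.65, 2.01 and 7.24 in IN, and 1.96, 2.07 and 4.01 in OUT. Most piglets were thus below the array median by then, and IR replicate 4 (8.92) and IN replicate 3 (7.24) kept a clear signal. By day 56 all 18 piglets lay between 1.72 and 2.29. Day 28 was lower than day 5 by -7.27 in IR (SE 1.02, limma adjusted p = 1.27e-06), -3.98 in IN (SE 1.02, adjusted p = 0.00387) and -4.42 in OUT (SE 1.02, adjusted p = 0.00173), and the last was -5.29 without OUT replicate 3 of day 5. With only the 2 ages of IN in the fit, its difference was not called (adjusted p = 0.0694). The 2 ages did not overlap in IR and overlapped in IN and OUT. Between days 28 and 56 the differences were -1.59, -0.81 and -0.50 with no call.

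In APOA2 no difference between IR and OUT was called at days 28 and 56. At day 28 IR and OUT differed by 1.09 (SE 1.13, adjusted p = 0.999) and at day 56 by -0.00073 (SE 0.09, adjusted p = 0.999). The change of the IR to OUT difference from day 5 to day 56 was -3.95 (SE 1.44, limma adjusted p = 0.984), which was called. As the piglets of day 56 all lay at the same low level, this value is the day 5 difference with its sign turned and adds no evidence to it. From day 5 to day 28 the change was -2.85 (SE 1.44, adjusted p = 1) and was not called. Without OUT replicate 3 at day 5 the 2 changes were -3.08 (SE 1.37, adjusted p = 0.886) and -1.99 (SE 1.37, adjusted p = 1), with neither called. The call to day 56 was also lost without any 1 of the 12 IR and OUT arrays of day 56, without IR replicates 1, 3, 5 or 6 of day 5 and without OUT replicates 1 or 4 of day 5. This was the 1 of 12 apolipoprotein values called for such changes in IR against OUT, where 0.204% (day 28) and 0.254% (day 56) of all probesets were called. None of 12 was called for IN against OUT, where the shares were 0.438% and 0.292%. For APOA4 the change from day 5 to day 56 was -2.43 (SE 0.96, adjusted p = 0.984, not called), and without OUT replicate 3 of day 5 it was -1.05 (SE 0.36, adjusted p = 0.886) and called.

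APOE, the remnant ligand, fell with age in all 3 groups and was highest in IN piglets of day 5. The lowest, median and highest signals at day 5 were 11.71, 12.33 and 12.98 in IN, 8.30, 11.24 and 12.45 in IR, and 6.93, 11.33 and 12.82 in OUT. IN piglets were uniformly high, and IR and OUT piglets reached the same level but spread far below it. IN exceeded OUT by 1.47 (SE 0.86, limma adjusted p = 0.873) and the difference of IR from IN was -1.52 (SE 0.86, adjusted p = 0.705). Without OUT replicate 3 these were 0.69 (SE 0.66, adjusted p = 1) and -1.52 (SE 0.62, adjusted p = 0.383), and none of the 4 was called. IR and OUT differed by -0.05 (SE 0.86, adjusted p = 0.994), and by -0.83 without OUT replicate 3 (SE 0.66, adjusted p = 0.81), with no call.

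At day 28 the lowest, median and highest APOE signals were 7.63, 8.52 and 10.07 in IR, 8.15, 10.23 and 12.50 in IN, and 7.87, 8.29 and 10.36 in OUT. Again 3 of 6 IN piglets were above every OUT piglet, and the rest overlapped. The mean of the 2 measured B and plasma cell markers, CD79B and JCHAIN, was 10.92 and 10.90 in 2 of these 3 (replicates 2 and 6) and 3.54 in the other (replicate 3), against 6.85 to 7.38 in the other 3 IN piglets. In replicate 3 the T cell list was also low (3.26, against 5.71 to 7.85 in the other 5 IN piglets and 2.96 to 3.73 in the 18 piglets of day 5). OUT replicate 6, the OUT piglet with the highest APOE, had a B and plasma cell mean of 9.98 against 6.92 to 7.51 in the other 5. The part of these cells in the APOE values was not tested. IN exceeded OUT by 1.53 (SE 0.66, limma adjusted p = 0.977) and the difference of IR from IN was -1.46 (SE 0.66, adjusted p = 0.716), and neither was called. Without IN replicate 5, the IN piglet with the lowest value, they were 1.92 (adjusted p = 0.679) and -1.86 (adjusted p = 0.454), and both were called. Over all single arrays left out the differences were 1.05 to 1.92 and -1.86 to -0.99. No other array left out gave a call. Of 11 macrophage markers 1 was called higher in IN than in OUT at day 28 and 2 were called higher in IR than in OUT, and the part of these cells was not tested. None of the 6 apolipoprotein probesets was called at day 28, where 0.154% of all probesets were called for IR against OUT, 0.192% for IN against OUT and 0.496% for IR against IN. At day 56 the medians were 7.70 in IR, 8.01 in IN and 8.25 in OUT, and single piglets were higher, namely IR replicate 2 (10.02) and OUT replicates 2 (10.47) and 5 (11.22). The same 3 piglets had the highest B and plasma cell means of that day (9.27, 11.28 and 11.77, against 7.47 to 8.18 in the other 15), and the part of these cells was not tested. After group means were removed, APOE had a Pearson correlation of 0.25 with that list over the 53 arrays without OUT replicate 3 at day 5. Its largest correlations with lists were negative, at -0.55 for brush border, -0.51 for epithelium and -0.49 for chylomicron assembly. The highest positive one was 0.37 with the other apolipoproteins. No apolipoprotein probeset was called at day 56 for IR against OUT or IN against OUT, where 0.283% and 0.275% of all probesets were.

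Day 28 was lower than day 5 for APOE by -2.15 in IR (SE 0.77, limma adjusted p = 0.052), -2.21 in IN (SE 0.77, adjusted p = 0.0339) and -2.26 in OUT (SE 0.77, adjusted p = 0.0346), and the last was -3.05 without OUT replicate 3. These were changes of 4.44-fold, 4.63-fold and 4.80-fold, and all 3 were called, with some overlap between ages in each group. The OUT call was lost with only the 2 ages in the fit (adjusted p = 0.133) or only the 3 ages of OUT (adjusted p = 0.131). The call was lost in IR without replicates 3, 4, 5 or 6 of day 28 or 3, 4 or 6 of day 5, in IN without replicates 1, 4 or 5 of day 28 or 3, 5 or 6 of day 5, and in OUT without replicates 2, 4 or 5 of day 28 or 1, 4 or 5 of day 5, where the smallest changes were -1.83, -1.82 and -1.87. From day 28 to day 56 a call was made in IN alone (-2.14, SE 0.77, adjusted p = 0.0912), and it was lost without replicates 1, 2, 5 or 6 of day 56 or 2, 3 or 6 of day 28 and with array weights (-1.78, adjusted p = 0.185). The values of IR and OUT were -0.70 (adjusted p = 0.691) and 0.12 (adjusted p = 0.95). Whether the groups differ in this second step was not tested. The other APOE probeset stayed between 1.69 and 3.01 in all 54 arrays and was not called in any comparison.

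**Figure D4:**
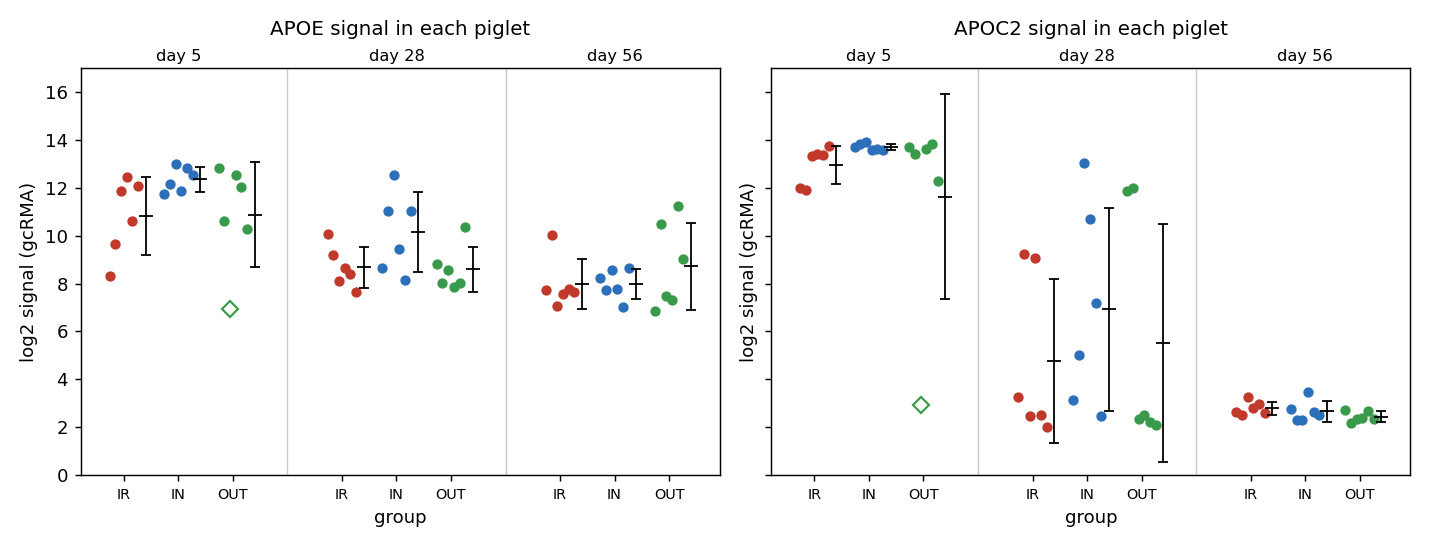
Log2 signal (vertical axis) of APOE and of APOC2 in each piglet, by group and day (horizontal axis). Points are piglets, black bars are group means ± SD (n = 6), and the open diamond is OUT replicate 3 at day 5. APOE means fall from 10.82 to 12.34 at day 5 to 7.97 to 8.73 at day 56, and the 18 APOC2 values of day 56 lie between 2.18 and 3.49.

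Over the 3 groups, 6 of 18 apolipoprotein values were called between days 5 and 28, all lower at day 28, and these were APOA2 and APOE in each group. Of all probesets 6.27% were called in IR, 8.08% in IN and 6.93% in OUT, and 3.37%, 4.33% and 3.81% were called as lower at day 28. After adjustment over all probesets 5 of the 6 had a p under 0.05. Between days 28 and 56, 1 of 18 was called, against 2.42%, 2.57% and 3.06% of all probesets in IR, IN and OUT. APOA1, APOC3 and APOA4 contributed none of these calls. Their largest difference between ages was 1.49 for APOA4 in OUT from day 5 to 28 (SE 0.68, adjusted p = 0.124), which became 0.12 without OUT replicate 3 (SE 0.26, adjusted p = 0.805).

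**Figure D5:**
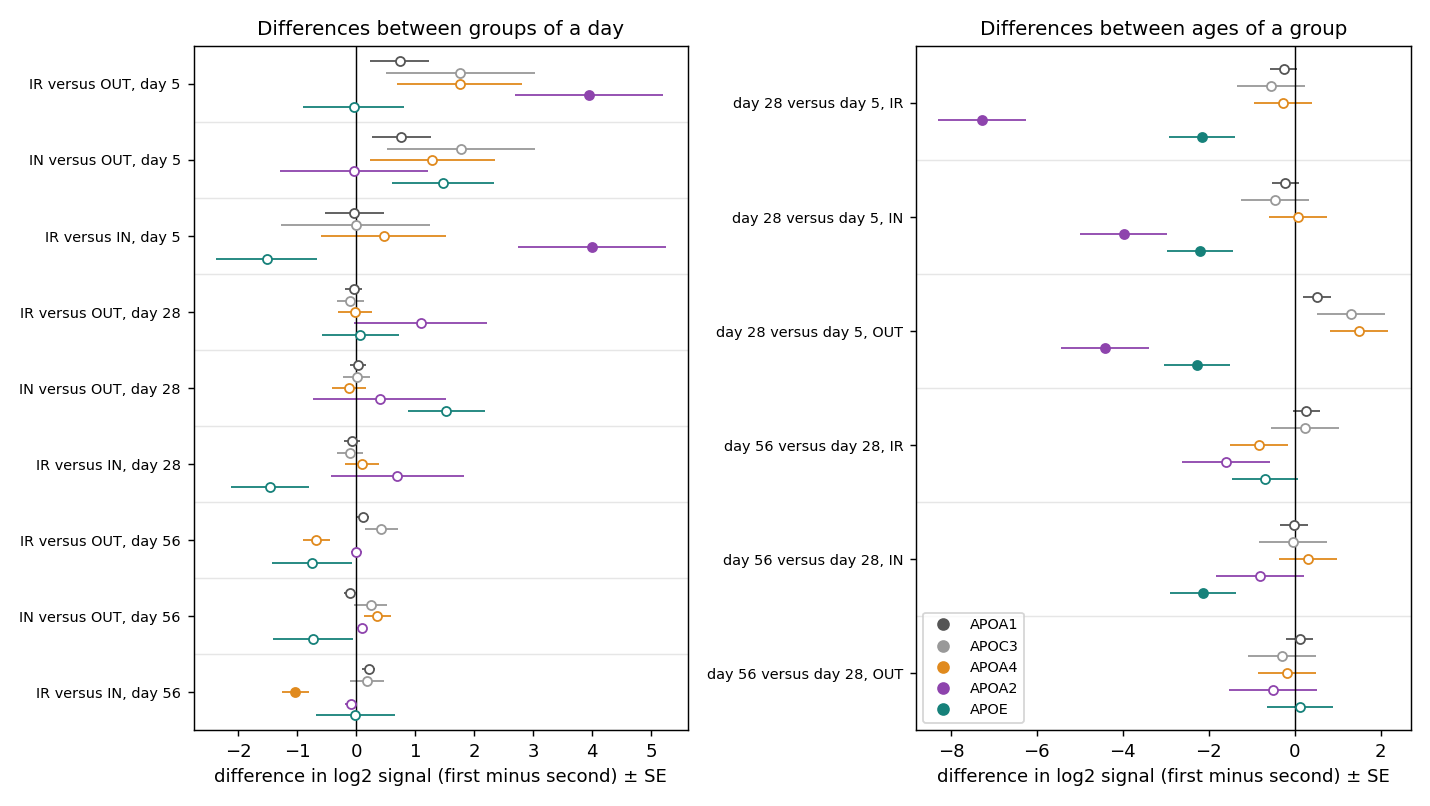
Differences in log2 signal ± SE from limma (horizontal axis) for the brightest probeset of each gene, between groups of a day (left) and between ages of a group (right). Filled points were called and open points were not, and the filled points at day 28 against day 5 are APOA2 and APOE in all 3 groups.

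Among 8 other apolipoproteins measured, APOC2, the lipase activator, was also high at day 5 and dim at day 56, and it was chosen for description after its values were seen. At day 5 it read 11.89 to 13.73 in IR, 13.57 to 13.90 in IN, and 12.29 to 13.81 in OUT apart from OUT replicate 3 (2.95). At day 56 all 18 piglets were between 2.18 and 3.49. Day 28 was split, with 2 of 6 IR piglets (9.24 and 9.05) and 2 of 6 OUT piglets (11.88 and 11.99) still high and the other 8 of these groups at 3.26 or less, and with IN spread from 2.46 to 13.02. IR replicates 2 and 4, IN replicate 3 and OUT replicate 1 were among the piglets with high APOC2. They also had the 4 highest APOA2 signals of day 28 (4.09, 8.92, 7.24 and 4.01), of which 4.09 and 4.01 lay near the array median. OUT replicate 2 and IN replicate 4 had high APOC2 too (11.99 and 10.70), with APOA2 of at most 2.48 and 2.23. Over the 18 piglets of that day the Pearson correlation of APOA2 with APOC2 was 0.59 (Spearman 0.62), that of APOA2 with APOE 0.29 (0.15) and that of APOE with APOC2 0.24 (0.31), with arrays of 3 groups pooled. Day 28 was lower than day 5 by -8.19 in IR (SE 1.61, limma adjusted p = 0.000281), -6.77 in IN (SE 1.61, adjusted p = 0.002) and -6.11 in OUT (SE 1.61, adjusted p = 0.006), and the last was -7.85 without OUT replicate 3 of day 5. No difference between groups of a day was called for APOC2.

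Of the other 7 apolipoproteins of the list 3 were called between ages. From day 5 to 28 APOH fell in IR (-2.28, limma adjusted p = 0.00335) and OUT (-2.02, adjusted p = 0.00861), CLU rose in IN (2.49, adjusted p = 0.00518), and APOO rose in OUT (1.49, adjusted p = 0.00971) and fell there again from day 28 to 56 (-1.25, adjusted p = 0.0523). No other change of the list was called. In the fit without OUT replicate 3 of day 5 APOB in IN from day 5 to 28 (-1.07, adjusted p = 0.0116) and APOC2 in IN from day 28 to 56 (-4.24, adjusted p = 0.0564) were called too, with unchanged differences and smaller SE. None of the 8 was called between groups of a day.

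The wider pathway moved in both directions with age. Of 60 pathway genes 4 rose and 8 fell in IR from day 5 to 28 (20.0%), 4 rose and 9 fell in IN (21.7%), and 10 rose and 7 fell in OUT (28.3%). Of all probesets 6.27%, 8.08% and 6.93% were called in IR, IN and OUT. That set had no filter on dim probesets, whereas each pathway gene was represented by its brightest probeset, so the shares are not alike. Without OUT replicate 3 of day 5 the counts in IR stayed the same, 5 rose and 11 fell in IN (26.7%), and 7 rose and 9 fell in OUT (26.7%). That fit called 6.58%, 8.54% and 7.52% of all probesets. The median change of the 60 was 0.06, 0.00 and 0.23 (OUT without that piglet 0.19), against -0.01, -0.02 and -0.01 for all probesets. Of the 17 chylomicron assembly genes 1 fell in IR (DGAT2), 1 rose in IN (PLIN2) and 2 rose in OUT (AGPAT2 and PLIN3). Without that piglet PLIN3 in OUT was 0.51 and not called, PLIN2 rose in OUT (1.32) as AGPAT2 did (1.43), and APOB and ACSL3 fell in IN. Of the 7 lipoprotein receptors, the endocytic receptor LRP2 and its chaperone LRPAP1 fell in all 3 groups, LRP2 by -3.25, -2.74 and -3.42 in IR, IN and OUT, and AMN fell in IN (-2.97) and, without OUT replicate 3 of day 5, in OUT (-3.07). Of the 10 genes of efflux and remodelling, the phospholipid transfer protein PLTP fell in all 3 groups (-2.73, -2.97 and -1.74) and lipoprotein lipase LPL rose (2.20, 2.35 and 2.47). NPC2 of that list also fell in all 3 groups (-1.14, -1.20 and -1.19), and LCAT rose in IR (2.73) and OUT (2.94). FABP6 of the lipid uptake list rose in all 3 groups (5.26, 6.57 and 7.96). The transcription factor NR2F2 fell in all 3 (-1.02, -1.29 and -1.35). Between groups of a day, no gene of the receptor, efflux or other apolipoprotein lists was called. At day 28 no pathway gene was called in any of the 3 comparisons.

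Marker lists moved with age as well. From day 5 to 28 7 of 11 macrophage markers rose in IR and none fell, 4 rose and 1 fell in IN, and 3 rose and 1 fell in OUT (2 fell without OUT replicate 3 of day 5), while APOE, which macrophages make, fell. The mean of the list went from 6.70 to 7.97 in IR, 6.87 to 7.56 in IN and 6.95 to 7.06 in OUT. The brush border list went from 10.33 to 11.05, from 10.13 to 10.62 and from 9.68 to 11.16, so that APOA2 and APOE fell while these means did not. In OUT 8 of the 12 brush border genes rose, and 3 without OUT replicate 3 of day 5, when the day 5 mean was 10.42. Of the 13 liver markers 2 fell in IR, 1 in IN and 2 in OUT and none rose, though 1 rose in IR without that piglet. The part of these cells in the changes of the apolipoproteins was not tested.

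The order of the 9 group means differed between members. APOA2 was highest in IR of day 5, followed by OUT and IN of day 5, which differed by 0.04, and then by the groups of day 28 (3.53, 2.83 and 2.43 in IR, IN and OUT) and day 56 (1.93 to 2.02). The first step of this order (3.95) and that from IN of day 5 to IR of day 28 (3.28) exceeded the larger SD of the neighbours, and no other did. APOE ran from IN of day 5 (12.34) through OUT and IR of day 5 (10.87 and 10.82) and IN of day 28 (10.13) to the remaining 5 groups between 7.97 and 8.73, and no neighbouring step exceeded the larger SD. For APOA4 the only step that did was from IN of day 5 (13.08) to IR of day 56 (12.43), and for APOC3 that from IR of day 5 (13.85) to IR of day 56 (13.54). For APOA1 none did. Differences between the 9 groups made up 76.0% of the variance over 54 piglets for APOA2 and 57.3% for APOE, and at most 18.6% for APOA1, APOC3 and APOA4. The shares without OUT replicate 3 of day 5 were 79.6% for APOA2, 65.5% for APOE, 36.9% for APOA4, 29.7% for APOC3 and 28.0% for APOA1. Means of 9 groups take up part of the variance by chance alone, and none of these shares was corrected for it.

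The named genes most like each member over the 54 arrays fell into different sets. For APOA1 they were MEP1B, PDZK1, APOB, PLA2G12B and SLC7A9 (Pearson r 0.971 to 0.943), for APOC3 MTTP, PDZK1, RBP2, DGAT1 and MEP1B (0.945 to 0.913), and for APOA4 MTTP, RBP2, AQP3, CIDEB and ANKS4B (0.943 to 0.865). Several of these are enterocyte genes of lipid and vitamin A handling or of the brush border. Their likeness rested in large part on OUT replicate 3 of day 5, since without it MTTP with APOA4 went from 0.943 to 0.604 and MTTP with APOC3 from 0.945 to 0.499, and other genes came first (SERINC3 for APOA1, HADHA for APOA4 and SEC23A for APOC3). For APOA2 the genes were LOC102163508, HOMER2, ITIH4, GCAT and HDAC6 (0.885 to 0.827), and for APOE CTSC, AGA, HSD17B14, PSAP and VEGFB (0.879 to 0.848). Several of the latter encode lysosomal proteins. The first gene of each set changed little without that piglet (0.891 for LOC102163508 with APOA2 and 0.878 for CTSC with APOE). Arrays of a group share their age and rearing, which enters all these values.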

How the data were processed

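Piglet ileum was measured with an array each in 54 piglets. The authors scanned the GeneChip Porcine Genome arrays with GCOS 1.2 and normalized them together by gcRMA, and the deposited values are log2 signals, used here as deposited. Groups, days and replicate numbers came from the labels. Of 24123 probesets, 124 control probesets were left out. The platform annotation gave 1 symbol to 10069 of the rest and several to 198.

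Groups of a day were fitted with limma 3.58.1 in R 4.3.3, per day with 3 groups and no block, because the run used as a block in the study's methods is not in the labels. Ages, and changes of group differences between days, were fitted over all 9 groups. No filter on dim probesets was applied. The thresholds follow the study's methods. A list gene was represented by its brightest probeset. The pathway lists were other apolipoproteins (8 of 17 genes measured), chylomicron assembly (17 of 22), enterocyte lipid uptake (5 of 12), efflux and remodelling (10 of 14), lipoprotein receptors (7 of 13) and lipid transcription factors (14 of 22). Marker lists covered brush border, epithelium, goblet and Paneth, liver, macrophage, smooth muscle, B and plasma, T, endothelial and enteric nerve cells. The goblet and Paneth list had a mean of at least 11.25 in each group, the T cell list rose from 3.30 to 6.86 between days 5 and 28 in IR, the B and plasma cell list from 3.75 to 7.44, the endothelial list went from 5.90 to 5.08 and the enteric nerve list from 3.95 to 3.72.

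The members and lists were chosen with earlier results of these data known. Named were all members, pathway genes called within a day (at most 8 per comparison) and the 5 genes most like each member. Pathway genes named for changes with age, marker genes, and the genes that led without OUT replicate 3 of day 5 were chosen after their values were seen. Arrays give no counts, and the number of piglets limits the precision. P-values measure the spread between piglets, some of which shared a dam. The fit was tested on simulated data. Alternatives were 2 blocks by label number, other sets of groups in a fit, dim probesets removed, arrays quantile normalized again or centred on the median, weights for arrays, eBayes with trend and robust options, calls on the adjusted p, and leaving out single arrays, and, added after seeing the data, the 2 groups compared with a block. Fits with a block left out the 2 arrays without a replicate number. Figures were drawn with matplotlib 3.10.9.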

Additional observations from a re-analysis of the deposited data

Results flagged for a closer look

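In 54 sets of 6 piglets (6 probesets in 9 groups) 12 held a piglet that lay far from its nearest neighbour by Dixon's criterion, which chance meets in about 1 of 20 sets. OUT replicate 3 at day 5 was far below its group for APOA1 (10.43, nearest 14.08), APOA4 (4.91, nearest 12.77) and APOC3 (3.84, nearest 13.01). Low values at later ages were those of IR replicate 1 at day 28 for APOA4 (12.08) and APOC3 (12.33), of OUT replicate 2 at day 56 for APOA4 (12.25) and APOC3 (11.46) and of IN replicate 2 at day 28 for APOC3 (12.54). High values were those of APOA2 at day 28 in IR replicate 4 (8.92, nearest 4.09), IN replicate 3 (7.24, nearest 2.23) and OUT replicate 1 (4.01, nearest 2.48), and of APOE in IR replicate 2 at day 56 (10.02, nearest 7.78).

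For APOA2 the difference between IR and OUT changed from day 5 to day 56 by -3.95 on the log2 scale (limma adjusted p = 0.984), and by -3.08 (adjusted p = 0.886) without OUT replicate 3 of day 5. With all piglets of day 56 at a low level, this is the day 5 difference with its sign turned and no separate evidence.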

How the results depend on the processing

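The direction of all 17 single differences with an unadjusted p under 0.05 was kept in every alternative run. Of the counts, the 6 calls between days 5 and 28 stayed between 4 and 6, and IN against OUT stayed at 0 except without IN replicate 5 of day 28 (1). For IR against OUT the 1 call became 0 with the label number as a block and with adjusted p-values, and 0 to 1 over single arrays left out (0 without IR replicates 3, 5 or 6 or OUT replicates 1, 3 or 4 of day 5). For IR against IN the 2 calls became 0 with the label number as a block and with adjusted p-values, 1 with the number in twos as a block, with all 9 groups in a fit and with quantile normalization, and 1 to 3 over arrays left out. For day 56 against day 28 the 1 call became 0 with array weights and with adjusted p-values and 0 to 1 over arrays left out. For the change of IR against OUT between days the 1 call became 2 with array weights, 0 with adjusted p-values and 0 to 2 over arrays left out. Deviations of same-numbered piglets correlated between -0.52 and 0.70 with a median of 0.03. Those of differently numbered piglets correlated between -0.60 and 0.52 with a median of -0.03. These values cannot tell whether piglets with the same number shared a run or a dam. The fit of 2 groups with a block in twos, chosen after seeing the data, moved none of these counts by over 1.5 times, though APOA4 between IR and IN at day 56 lost its call there (-0.94, adjusted p = 0.351). The causes of these changes were not tested. Most APOA2 signals of days 28 and 56 were below the array medians, which limits what can be said of differences there.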
